A study of Homo sapiens with 8 samples.

Results

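The members are the peaks on the plus strand of chr15:25060000-25670000 (build hg19), the imprinted window that holds SNRPN and the SNORD116 and SNORD115 snoRNA clusters, in an eCLIP study of RBPMS in human embryonic stem cells. They were taken by position and strand, with no value of the peaks in the rule, and came to 127, 326, 144 and 210 peaks in libraries 1, 2, 3 and 4, or 807 of 194003 listed peaks. eCLIP sequences the RNA fragments that UV light has crosslinked to a protein and that an antibody against that protein then pulls down. All libraries came from untreated wild-type HUES6 cells, an established embryonic stem cell line grown in FTDA medium, irradiated at 400 mJ/cm2 in dishes of about 20M cells. The 4 eCLIP libraries used an antibody specific for RBPMS, and the 4 input libraries used no antibody. No knockdown, knockout or unrelated antibody is among the groups, so input is the comparator throughout, and it enters through the deposited log2 fold and p of each peak.

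RBPMS is an RNA-binding protein with a single RNA recognition motif that acts as a dimer, prefers CAC-containing RNA, and is best known as a splicing regulator of smooth muscle. In the Prader-Willi domain of chromosome 15, transcription on the paternal chromosome starts near SNRPN, which encodes the spliceosomal protein SmN together with the small upstream protein SNURF. It continues into the long host transcript SNHG14, whose introns release box C/D snoRNAs and, around SNORD116, long noncoding RNAs that are capped by snoRNAs and abundant in human embryonic stem cells. SNORD115 and the stretch opposite to UBE3A, the ubiquitin ligase gene of Angelman syndrome, are known to be transcribed mainly in neurons.

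No hg19 annotation was used, so each interval carries the name it was given with the window, and no peak is placed in an exon, an intron or a snoRNA. By gene order in the RefSeq table of another assembly, PWARSN, SNORD107, PWAR5, SNORD64, SNORD108, PWAR6 and SNORD109A follow SNRPN and SNURF and precede 30 SNORD116 copies. IPW and PWAR1 come next, then 48 SNORD115 copies, SNORD109B and UBE3A. The snoRNA copies of a cluster resemble one another, and the labels do not say how reads that match several copies were counted, so a peak within a cluster is uncertain as to its copy.

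The depth was unequal. The lists held 25759, 118375, 20254 and 29615 peaks, and input was sequenced 3.18, 1.04, 2.12 and 1.46 times as deeply as the immunoprecipitation. Read numbers worked back from the deposited values had a median of 4, 16, 5 and 6 immunoprecipitation reads per member peak, against 4, 4, 3 and 4 in all other peaks. The libraries were compared by immunoprecipitation reads alone, without input. By these, libraries 3 and 4 were no further apart than counting noise (chi-square per degree of freedom 1.08 over 370 shared peaks, p = 0.127, against 6.52 to 11.9 in the other 5 pairs) and were counted as 1 sample. Every mean ± SD below is therefore over n = 3 samples unless another n is given. With 3 samples the exact sign-flip permutation test cannot go below p = 0.25, and nothing states that the libraries came from separate cultures.

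All but 3 of the peaks lay in the SNRPN and SNORD116 intervals and the stretch between them. In the interval named SNORD115 (chr15:25410001-25530000, 120 kb) none of the 4 libraries listed a peak on the plus strand, and none did in the 140 kb after it. A count of 0 allows there a share of up to 2.36, 0.920, 2.08 and 1.43% of the members of libraries 1 to 4. This is an upper 95% limit, 3 divided by the number of members. It takes peaks as independent, which neighbouring peaks need not be. The name SNORD115 is thus not borne out by any plus strand peak, and all 807 members lay before that interval.

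The SNRPN interval (chr15:25060001-25225000, 165 kb) held 17, 35, 10 and 19 peaks in libraries 1 to 4. The interval between SNRPN and SNORD116 (chr15:25225001-25290000, 65 kb) held 36, 149, 74 and 113. The SNORD116 interval (chr15:25290001-25370000, 80 kb) held 74, 140, 59 and 78. Most members thus lay downstream of the SNRPN interval, 372 in the stretch before SNORD116 and 351 within SNORD116 against 81 in SNRPN, summed over the libraries.

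Per 10 kb the stretch before SNORD116 held 5.54, 22.9, 11.4 and 17.4 peaks in libraries 1 to 4, and SNORD116 held 9.25, 17.5, 7.38 and 9.75. Library 1 was the exception to the order of these intervals: it listed more per 10 kb in SNORD116, and the other 3 libraries listed more before it. SNRPN had 1.34 ± 0.68 peaks per 10 kb (SD), a mean over an interval that was mostly empty. No library listed a peak in its first 80 kb or from 110 to 140 kb after the window's start. The 10 kb from 140 to 150 kb held 23 peaks over the libraries, and those from 150 to 160 kb held 33.

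**Figure D1:**
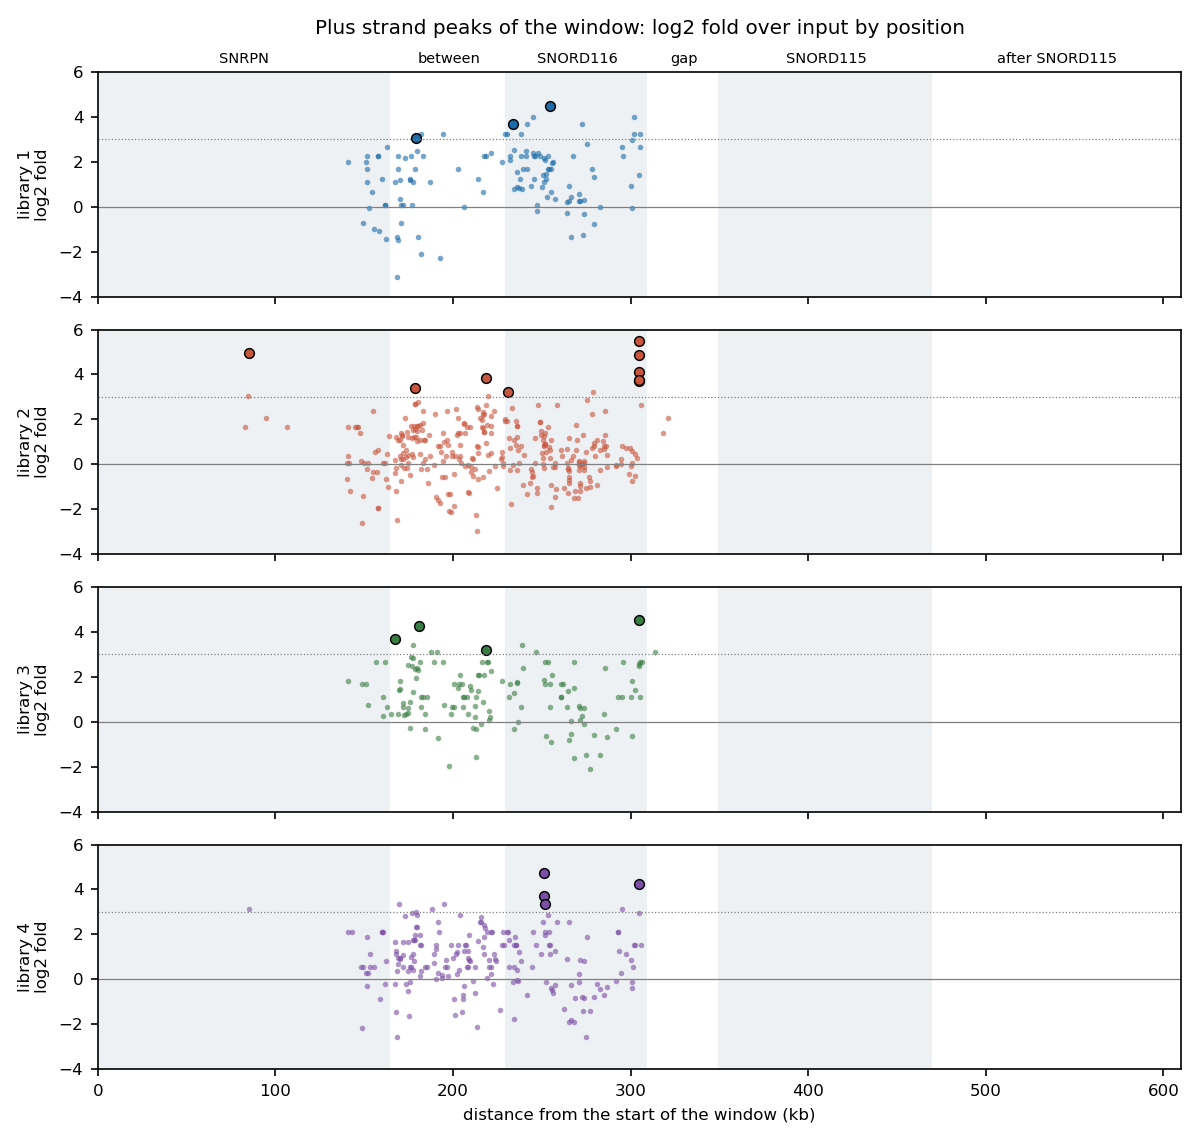
Each point is 1 plus strand peak, placed by its distance in kb from the start of the window (x axis) and its log2 fold over input (y axis), with 1 panel per library and shading for the intervals. Outlined points are enriched peaks, the dotted line marks a log2 fold of 3, and SNORD115 and the stretch after it are empty in every panel.

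The first peak began at chr15:25200970, 25142957, 25200559 and 25144888 in libraries 1 to 4, and the last ended at 25365468, 25380806, 25373762 and 25366097. Between SNORD116 and SNORD115 only 3 peaks were listed, each on few reads. Library 2 had chr15:25378382-25378420, with a log2 fold of 1.38 on 5 immunoprecipitation and 2 input reads, and chr15:25380789-25380806, with 2.06 on 4 reads over 1. Library 3 had chr15:25373722-25373762, with 3.09 on 4 reads over 1. None of the 3 passed a −log10 p of 3.

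Of the window's 61 bins of 10 kb, 22 held a peak in some library, 17 held one in all 4, and 39 held none. The fullest bin, from 170 to 180 kb after the window's start, held 97 peaks over the libraries and lies in the stretch before SNORD116.

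**Figure D2:**
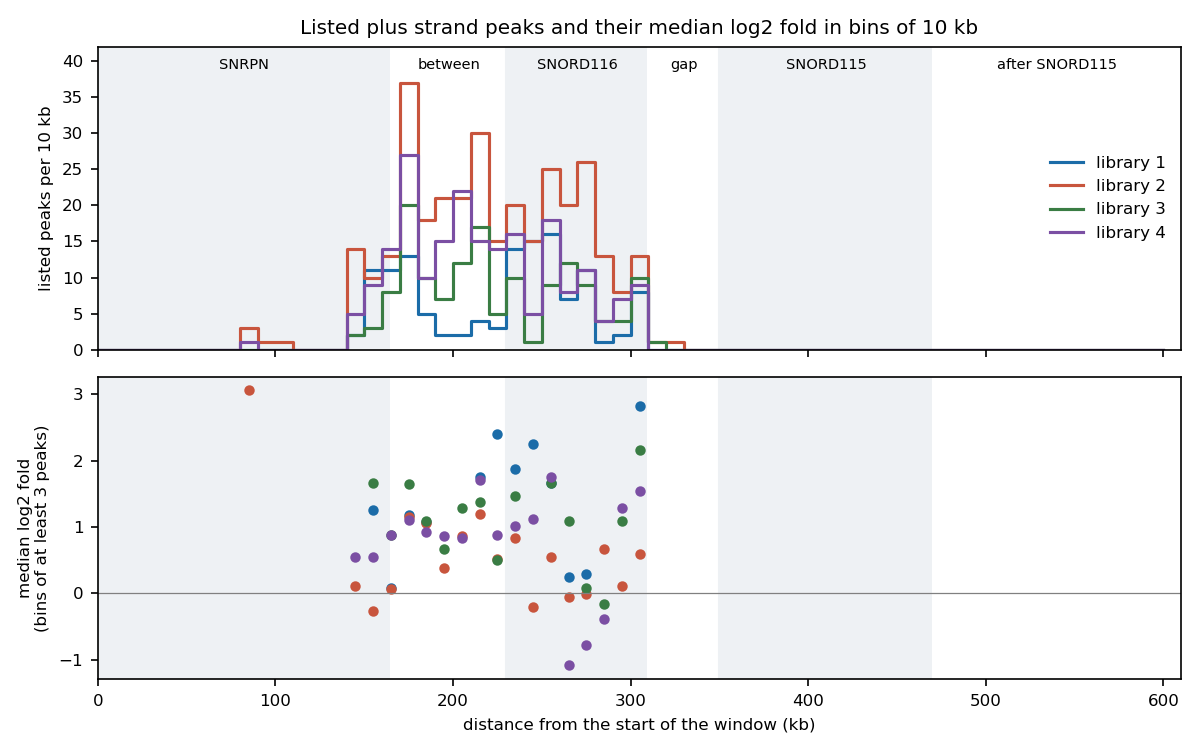
The upper panel counts listed plus strand peaks per bin of 10 kb and the lower panel gives their median log2 fold over input, for bins with at least 3 peaks, against distance from the window's start in kb and with 1 colour per library. The counts end after SNORD116, and the medians of 3 neighbouring bins in the middle of SNORD116, from 260 to 290 kb, lie near or below 0 in libraries 2, 3 and 4 apart from 1 bin each of libraries 2 and 3.

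Almost all peaks of the window were on the strand of SNRPN transcription. The plus strand share of the window's peaks was 100, 97.3, 100 and 100% in libraries 1 to 4, against 50.4, 53.0, 52.6 and 54.2% of all listed peaks. Only library 2 had peaks on the minus strand, 9 in all, with 1 in the SNRPN interval and 8 after SNORD115, between chr15:25582964 and 25669918. Their log2 folds ran from -0.52 to 2.06. In that last stretch library 2 listed peaks on the minus strand and none on the plus strand. These peaks were weak: those above input each rested on 3 or 4 immunoprecipitation reads over 1 input read. Their highest −log10 p was 0.68. UBE3A, which follows the SNORD115 copies in gene order, is known to be transcribed from the minus strand.

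The members stood lower over input than the other listed peaks. Their median log2 fold was 1.40, 0.49, 1.09 and 0.91 in libraries 1 to 4, a mean of 0.96 ± 0.46 (SD). All other listed peaks had medians of 3.25, 1.06, 2.67 and 2.13. Members were lower in all 4 libraries.

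The difference of the medians, members minus others, was -1.85, -0.57, -1.59 and -1.22 in libraries 1 to 4, or -1.27 ± 0.65 over the samples (exact two-sided sign-flip permutation test, p = 0.25, the smallest it can give). Against the plus strand peaks of chromosome 15 outside the window it was -1.38 ± 0.48 (p = 0.25 by the same exact test).

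The size of this gap depended on which peaks entered, in both directions. Of peaks with worked-out reads, 42.6, 42.7, 59.6 and 56.1% of the others had 1 input read in libraries 1 to 4, but only 7.84, 7.80, 15.8 and 17.0% of the members. Among peaks with more than 1 input read the members' medians were 1.67, 0.98, 1.28 and 1.13 and those of the others 2.25, 0.91, 1.67 and 1.13. The difference was then -0.24 ± 0.33 (exact sign-flip p = 0.5), within the spread between samples. This filter selects on the denominator of the log2 fold itself and removed more of the others than of the members. How far the filter itself narrows the gap was not tested, and it cannot show that the gap is absent.

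Among peaks with at least 10 worked-out immunoprecipitation reads the gap was wider than over all peaks in libraries 2, 3 and 4 and about the same in library 1. The members' medians there were 2.15, 1.06, 1.76 and 1.66, on 9, 159, 20 and 41 peaks. Those of the others were 3.99, 2.38, 4.36 and 3.86, a difference of -1.85 ± 0.54 (exact sign-flip p = 0.25). These members had a median of 15, 12, 10 and 7 input reads, and the other peaks 4, 4, 2 and 2. A floor of 10 reads does not match the depth above it. In the narrower band of 10 to 19 immunoprecipitation reads, the 6, 68, 17 and 32 members had a median of 7.5, 6, 9 and 7 input reads. The other peaks in that band had 3, 3, 2 and 2. Both read filters leave out peaks below input, peaks with a −log10 p of 0 and peaks at the p ceiling. Both were chosen after the data had been seen. The filter on immunoprecipitation reads selects on the numerator of the log2 fold, and how far that widens the gap was not tested.

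**Figure D3:**
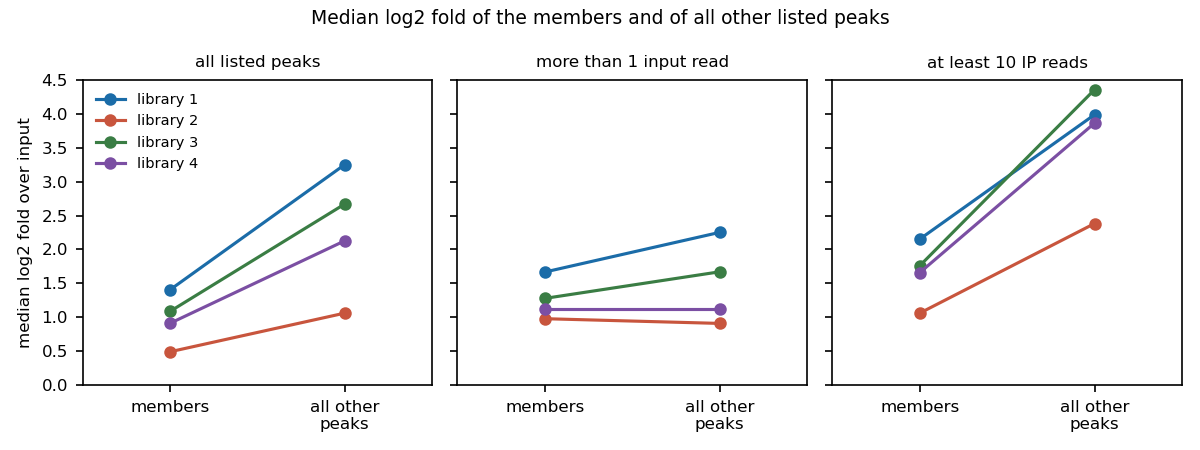
Median log2 fold over input (y axis) of the members and of all other listed peaks, joined by a line for each library, over all listed peaks (left), peaks with more than 1 input read (middle) and peaks with at least 10 immunoprecipitation (IP) reads (right). Members are lower in all 4 libraries on the left and on the right, whereas in the middle library 2 has a member median of 0.98 against 0.91 and library 4 has 1.13 in both.

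Few members passed the threshold for enrichment, a log2 fold of at least 3 (8-fold over input) with a −log10 p of at least 3. The enriched members were 3, 9, 4 and 4 in libraries 1 to 4, which is 2.36, 2.76, 2.78 and 1.90% (95% Wilson intervals 0.807 to 6.72, 1.46 to 5.16, 1.09 to 6.92 and 0.743 to 4.79%, for counting error only). Over all listed peaks 15.9, 5.38, 12.6 and 12.7% were enriched, so the members' share lay below the background in each library, with a mean of 2.49 ± 0.24%. Among peaks with at least 10 worked-out immunoprecipitation reads, 1 of 9, 7 of 159, 3 of 20 and 4 of 41 members were enriched. That is 11.1, 4.40, 15 and 9.76% of few members, against 76.5, 30, 76.5 and 68.7% of the others. This filter leaves out peaks with a −log10 p above 3 but no worked-out reads, nearly all at the p ceiling. They include 2 of the 9 enriched members of library 2, and 512, 1382, 438 and 765 other peaks of libraries 1 to 4.

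At a −log10 p of at least 3 with no demand on the fold, 8, 32, 8 and 8 members passed. That is 6.30, 9.82, 5.56 and 3.81% of them, against a background of 18.2, 7.47, 13.8 and 14.1%. Library 2 was here above its background, and the other 3 libraries were below theirs. At a log2 fold of at least 1 with that p, 8, 29, 8 and 8 members passed, or 6.30, 8.90, 5.56 and 3.81%, against 18.2, 7.37, 13.7 and 14.0% of all listed peaks. A log2 fold above 0 was found for 83.5, 67.8, 84.7 and 75.2% of the members, against 97.2, 84.4, 95.7 and 92.6% of all listed peaks.

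The 20 enriched members fell into 12 regions, a region being all members that overlap by at least 1 base once the libraries are joined. SNORD116 held 13 of the 20, the stretch before it 6, and SNRPN 1. Only 2 regions had an enriched peak in more than 1 library, and 10 had one in a single library.

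The strongest region was chr15:25364654-25365006, 353 bases near the end of the SNORD116 interval. Its highest log2 fold was 1.40, 5.50, 4.54 and 4.24 in libraries 1 to 4 (3.77 ± 2.12). Libraries 2, 3 and 4 passed the threshold there and library 1 did not reach it, with 1 peak on 5 immunoprecipitation and 6 input reads. The region held 7 of the 20 enriched members, 5 of them abutting or nearly abutting peaks of library 2 with log2 folds from 3.70 to 5.50.

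In library 2 the 3 peaks from chr15:25364654 to 25364824 rested on 112 reads over 9 input reads, 114 over 7 and 78 over 6. For the next 2, chr15:25364825-25364900 and chr15:25364913-25364997, the p sits at its ceiling and the log2 fold fixes the ratio alone, which needs at least 85 reads over 3 and 87 over 2. Library 3 had chr15:25364762-25364825 at 4.54 on 11 reads over 1, and its other 2 peaks in the region, 2.57 on 14 over 5 and 2.50 on 8 over 3, were below the threshold. Library 4 had chr15:25364879-25365006 at 4.24 on 26 reads over 2, next to a peak at 2.97 on 43 over 8.

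Without this region 1.80% of members were enriched (mean over the samples). It also sets the window's highest −log10 p, 22.3 in library 2.

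The other region enriched in more than 1 library was chr15:25278204-25278334, in the stretch before SNORD116. Library 2 had a log2 fold of 3.83 on 41 reads over 3, library 3 had 3.20 on 13 over 3, and library 4 had 2.28 on 10 over 3. Library 1 listed no peak there. The mean was 3.29 ± 0.77 over n = 2 samples, and since libraries 3 and 4 count as 1, both enriched calls come from separate samples.

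In 2 more SNORD116 regions among the 10 with the highest mean log2 fold, 1 library gave the enriched call. At chr15:25314567-25314621 library 1 had a log2 fold of 4.47 on 7 reads over 1 and libraries 3 and 4 had 1.67 and 1.13 on 3 reads over 2. At chr15:25310890-25311148 library 4 had 4.71 on 18 reads over 1, while libraries 1, 2 and 3 had 2.15, 1.26 and 1.84 on 28 over 20, 69 over 30 and 22 over 13. The other libraries lay below 3 at both. A peak with 1 input read also depends on how an input of 0 was handled, which the worked-back reads cannot show, and 5 of the 20 enriched members had 1 input read.

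The stretch before SNORD116 held 7 of the 10 regions with the highest mean log2 fold, chr15:25278204-25278334 and 6 more. The region chr15:25239906-25240015 had 2.78, 2.31 and 2.31 in libraries 2, 3 and 4 (2.54 ± 0.33, n = 2 samples). The region chr15:25232603-25232718 had 2.15, 2.04 and 2.82 in libraries 1, 2 and 4 (2.34 ± 0.42), on up to 67 reads over 17. The region chr15:25239415-25239550 had 2.47, 1.69 and 2.86 in the same libraries (2.34 ± 0.60), on up to 68 reads over 22.

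Close by, chr15:25238865-25238951 had log2 folds of 3.05, 1.20 and 2.35 in libraries 1, 2 and 4, and chr15:25238264-25238357 had 1.67, 2.69 and 1.98. At chr15:25254326-25254399 libraries 1, 2 and 3 had 3.25, 1.38 and 2.67. All 6 regions were above input in each library that listed them, and of the 6 only chr15:25238865-25238951 had an enriched peak, in library 1 on 13 reads over 5. Library 2, with the most reads, had the lowest log2 fold in 4 of the 6.

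**Figure D4:**
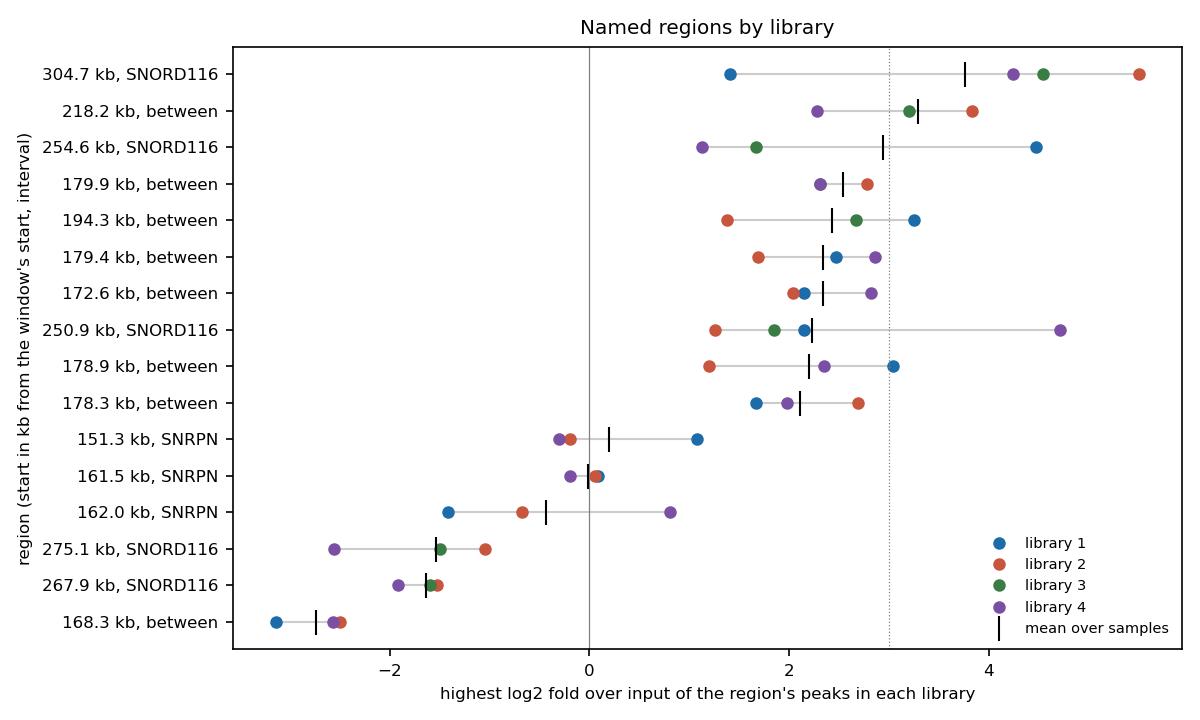
The highest log2 fold over input in each library (x axis, 1 colour per library) for 16 regions (y axis, named by their start in kb from the window's start and by interval), with a black bar at the mean over samples and a dotted line at 3. The region at the top has 3 libraries above 4 and library 1 at 1.40, and the 3 regions at the bottom lie below 0 in every library that listed them.

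Regions listed in at least 3 libraries allow the intervals to be compared on RNA that was seen repeatedly. Of 502 member regions 322 were listed in 1 library, 106 in 2, 54 in 3 and 20 in all 4. Those in at least 3 came to 74, or 14.7%, against 4.94% of the 154731 regions of the whole lists. Few of them were enriched repeatedly: 1 of the 74 (1.35%) was enriched in at least 3 libraries, against 22.3% of 7645 recurrent regions overall. The shares of 14.7 and 4.94% are not like for like. Library 2 gave 118375 of the 194003 listed peaks but 326 of the 807 members. A single shared base joins peaks, and member peaks of library 2 covered 7914 bases of the 65 kb before SNORD116. Libraries 3 and 4 count separately here. How far these points set the members' share was not tested. Leaving out library 1, 2, 3 or 4 while still asking for 3 libraries gave 46, 23, 36 and 28 regions, and with libraries 3 and 4 joined, 160 member regions were listed in at least 2 of 3 samples.

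Of the 74 recurrent regions, 36 lay before SNORD116, 35 in SNORD116 and 3 in SNRPN. Each region was scored by its highest peak in each library, so a region counted as above input can also hold a peak below it. By this score, 28 of 36 in the stretch before SNORD116 were above input in every library that listed them. Another 2 were below input in every one, and 6 were mixed. In SNORD116 10 of 35 were above input throughout, 6 below throughout and 19 mixed. The median of the regions' mean log2 folds was 1.30 before SNORD116 and 0.30 in SNORD116.

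By library, the peaks of recurrent regions before SNORD116 had a median log2 fold of 1.67, 1.0, 1.09 and 1.28, and those in SNORD116 had 0.85, 0.14, 0.64 and -0.04. The stretch before SNORD116 was higher in all 4 libraries, by 0.82, 0.86, 0.45 and 1.32 (0.85 ± 0.035, exact two-sided sign-flip permutation test p = 0.25, the smallest possible). Libraries 3 and 4, joined for this SD, gave the lowest and the highest of these differences, 0.45 and 1.32. Their mean fell near the other values, so the SD of 0.035 understates the spread between single libraries. Peaks below input made up 12.2 ± 8.2% of the peaks of recurrent regions before SNORD116 and 39.8 ± 9.2% in SNORD116.

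Over all listed peaks that difference was not seen. The medians were 1.22, 0.80, 1.20 and 0.96 before SNORD116 and 1.67, 0.37, 1.09 and 0.85 in SNORD116. The difference was 0.03 ± 0.44 (exact sign-flip p = 1), with the stretch before SNORD116 lower in library 1 and higher in the other 3. Without library 2 it was -0.17.

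SNRPN had medians of 1.08, 0.06, 1.38 and 0.54 in libraries 1 to 4, on 10 to 35 peaks. SNORD116 was 0.30 ± 0.29 higher, with library 3 the other way at -0.29, and the stretch before SNORD116 was 0.33 ± 0.35 higher, with library 3 again the other way at -0.18 (exact sign-flip p = 0.25 for both). The 3 comparisons between intervals had Benjamini-Hochberg adjusted p-values of 0.375, 0.375 and 1. None passed, and with a lowest possible p of 0.25 none could. Only SNORD116 against SNRPN had been planned. Those with the stretch before SNORD116 were added, and SNORD115 had no peaks to compare.

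Within SNRPN, library 2 gave the 1 enriched peak, in chr15:25144775-25144977, with a log2 fold of 4.97 on 30 reads over 1. Library 4 also listed this region, at 3.13 on 6 reads over 1, and libraries 1 and 3 did not. All 3 recurrent regions of SNRPN were mixed in sign. The region chr15:25211266-25211342 had 1.08, -0.19 and -0.31 in libraries 1, 2 and 4, chr15:25221518-25221563 had 0.08, 0.06 and -0.19, and chr15:25222024-25222171 had -1.42, -0.68 and 0.81. None of them stood apart from input by more than its spread.

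The SNORD116 interval was uneven along its length. Its middle, chr15:25320001-25350000, held 126 peaks over the libraries, of which 58 (46.0%) were below input and none was enriched. The rest of the interval held 225 peaks, of which 47 (20.9%) were below input and 13 were enriched. The middle was picked out after its values had been seen, so no test was made. Its median log2 fold was 0.25, 0.10, 0.35 and -0.69 in libraries 1 to 4, against 1.99, 0.59, 1.67 and 1.54 in the rest of SNORD116, lower in each library.

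Members below input numbered 21, 105, 22 and 52 in libraries 1 to 4, 200 of 807 in all, and 68 of them had a log2 fold of -1 or less. Their deposited −log10 p is 0 in every case, and depletion was therefore not tested. The lowest recurrent region, chr15:25228291-25228359, lies just past the SNRPN interval and had -3.14, -2.50 and -2.57 in libraries 1, 2 and 4 (-2.74 ± 0.35). Those ratios need at least 1 immunoprecipitation read over 28 input reads, 9 over 53 and 3 over 26. The next lowest were both in the middle of SNORD116. The region chr15:25327915-25327979 had -1.52, -1.59 and -1.92 in libraries 2, 3 and 4, and chr15:25335079-25335155 had -1.04, -1.50 and -2.56. All 3 were below input in each library that listed them.

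The libraries ordered the regions in a similar but loose way. Over regions listed in both libraries of a pair, Pearson's r of the highest log2 fold was 0.49, 0.52 and 0.51 for library 1 with 2, 3 and 4 (66, 34 and 45 regions). It was 0.66 for libraries 2 and 3 (73 regions), 0.68 for 2 and 4 (101) and 0.65 for 3 and 4 (69). The sign of the log2 fold was the same in 42 of 66, 30 of 34, 35 of 45, 56 of 73, 74 of 101 and 55 of 69 regions. These points share a pair of libraries and neighbouring RNA, and the values describe agreement only.

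Recurrent regions were narrow and spread out, with a median width of 96.5 bases. The median distance between the midpoints of neighbours was 989 bases before SNORD116 and 1418 bases in SNORD116. Over all regions it was 199 and 210 bases, and 310 in SNRPN. No sequence of these regions is shown, since no hg19 genome was used.

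The window made up a large part of the chromosome's lists. Its members were 17.9, 8.43, 21.6 and 21.1% of all chromosome 15 peaks in libraries 1 to 4, on a stretch of 610 kb. The enriched share of chromosome 15 was 9.42, 4.53, 8.85 and 9.05% with the members and 10.96, 4.69, 10.5 and 10.96% without them. Without the members chromosome 15 was thus still below the share of all listed peaks in each library.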

How the data were processed

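The deposited lists, 1 per eCLIP library, hold for each peak the authors' −log10 p and the authors' log2 fold of immunoprecipitation over input, on hg19 per the submitters' processing notes. Which input was used for which list, the aligner and the caller of the peaks were not stated in the labels. Members were taken by an overlap of at least 1 base with the window, and no peak crossed its edges. Read numbers were worked back from the deposited pair of values, with Fisher's exact test where an observed or expected read number was below 5 and the chi-square test with continuity correction otherwise. This settled all 102, 218, 120 and 153 members above input whose −log10 p was above 0 and not at the p ceiling. Members above input numbered 106, 221, 122 and 158. The p ceiling, a −log10 p of 15.7, was taken to hold for Fisher's exact test alone. On simulated data 5297 of 5297 pairs came back, which does not show that the authors computed p this way. The regions named are those enriched in at least 2 libraries, the 10 highest and 3 lowest by mean log2 fold among those in at least 3 libraries, and the 3 highest per interval. Regions enriched in 1 library, minus strand peaks and peaks after SNORD116 were named after their values were seen. The members and lists were chosen with earlier results of these data known. Each region took the log2 fold of its highest peak per library. Python 3.11.15, pandas 2.3.3, numpy 2.4.6 and scipy 1.17.1 were used.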

Additional observations from a re-analysis of the deposited data

Results flagged for a closer look

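Library 2 stood apart from the other 3 in 5 of 24 quantities compared over the 4 libraries by Dixon's test at the 95% level, where about 1 in 20 is flagged by chance. Libraries 3 and 4 enter there singly, although they are counted as 1 sample elsewhere, and the 24 quantities are related to one another. Joined, they leave 3 samples, which this test was not run on. Library 2 listed 118375 peaks, against 20254 to 29615 in the others. Of its window peaks 97.3% were on the plus strand, against 100% in each of the others, which are tied at the highest possible value. Its members had a median of 16 immunoprecipitation reads and 8 input reads, against 4 to 6 and 3.5 to 4. Without the members, 4.69% of its chromosome 15 peaks were enriched, against 10.5 to 10.96%. Without library 2 the mean enriched share of chromosome 15 outside the members was 10.8% over n = 2 samples, against 8.79% with it, the members' median log2 fold was 1.20 against 0.96, and their median minus that of other peaks was -1.63 against -1.27.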

How the results depend on the processing

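No paired analysis was possible because the input libraries, which carry the same numbers as the eCLIP ones, enter only through the deposited ratios. Of 82 results under other settings, 1 changed direction and 14 moved in size. Moved means by at least the SD of the main result or, for counts, beyond a fixed factor. Counts and shares cannot change direction, and differences were labelled by direction only, so keeping direction does not mean keeping size. The members' median minus that of other peaks went from -1.27 to -0.24 among peaks with more than 1 input read, -1.85 with at least 10 immunoprecipitation reads and -2.20 over recurrent peaks. The stretch before SNORD116 minus SNORD116 went from 0.03 to 0.85 over recurrent peaks and 0.32 over peaks with a −log10 p of at least 3. The median log2 fold of the members was 2.60 over peaks with a −log10 p of at least 3, where 100% lie above 0 because peaks below input carry a −log10 p of 0. The enriched share was 0.954% at a −log10 p of at least 5, 6.63% at a log2 fold of at least 1, 1.62% with a common minimum of 13 reads, and, added later, 1.80% without the strongest region and 9.30% among peaks with at least 10 immunoprecipitation reads. The 74 recurrent regions became 180 when 2 libraries sufficed, 20 when all 4 were asked for, 160 in at least 2 of 3 samples, and 23 to 46 with 1 library left out, which leaves 3 libraries to hold a region. The difference between the stretch before SNORD116 and SNORD116 ran from -0.17 (without library 2) to 0.27 with 1 library left out. With 1 library left out, the members' median minus that of other peaks ran from -1.63 to -0.99 and their enriched share from 2.34 to 2.63%. Differences that involve SNRPN had no value over peaks with a −log10 p of at least 3 or over recurrent peaks. In libraries 1, 3 and 4 the median member with worked-out reads rests on 4 to 6 immunoprecipitation reads, and the enriched members and other peaks had at least 7, 13, 8 and 10 reads in libraries 1 to 4. How far depth sets the members' enriched share was not tested. An exact test over 3 samples cannot pass a threshold of 0.05, so its p-values say nothing about stability.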

Other observations

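Library 2 had more reads per peak on the members than on its other peaks. Of its members with worked-out reads 41.7% had at least 20 immunoprecipitation reads, against 8.65% of its other peaks. In libraries 1, 3 and 4 the shares were 2.94, 2.50 and 5.88% of members and 6.04, 4.51 and 7.16% of other peaks. At that depth the members' median log2 fold was 2.15, 1.15, 1.77 and 1.77 in libraries 1 to 4, on 3, 91, 3 and 9 peaks, and that of the other peaks was 4.29, 2.94, 4.48 and 4.19.

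The members were as wide as other peaks, with a median of 49, 48, 49.5 and 45 bases against 48, 51, 46 and 49 over all listed peaks.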
